A study of Mus musculus with 6 samples.

Results

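The genes described here are 10 regulators of mitochondrial biogenesis: *Ppargc1a*, *Ppargc1b*, *Esrra*, *Nrf1*, *Gabpa*, *Tfam*, *Tfb1m*, *Tfb2m*, *Polg* and *Polrmt*. They were chosen by name and not by a threshold on their values, but with earlier results of these data known. All 10 were found by symbol among the 20032 Ensembl genes with a symbol in a count table of 20409 features, and all 10 passed the filter on low counts. They were measured by bulk RNA-seq of villus epithelium from the mouse duodenum. There were 3 double mutant villi (DMV) and 3 wild-type villi (WTV) libraries, labelled as replicates 1 to 3 of each group. Whether each library came from a single mouse is not stated in the study's text. The double mutant mice carried *Villin-CreERT2*, *Smad4* fl/fl and *Ctnnb* exon3 fl/wt on a C57BL6-enriched background, so that tamoxifen removed *Smad4* and stabilized β-catenin in the intestinal epithelium, in every cell type that descends from it. They received 4 daily injections of tamoxifen at 0.05 g/kg, and their villi were taken 7 days after induction began. The wild-type mice were littermates that received no injection, so the effect of the mutations and that of tamoxifen cannot be told apart. Which of the alleles the wild-type mice carried and the age of the mice are not given in the sources used here. Each group held 1 male and 2 female libraries, and replicate 1 of either group is the male.

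Mitochondrial biogenesis is run from the nucleus. The PGC-1 coactivators do not bind DNA themselves but are recruited by transcription factors such as the estrogen-related receptor ERR alpha (*Esrra*), nuclear respiratory factor 1 (*Nrf1*) and the GA-binding protein (*Gabpa*), which switch on genes for respiration and for the upkeep of mitochondrial DNA. The nuclear genome also supplies the machinery that reads and copies the mitochondrial genome, namely the RNA polymerase POLRMT, its packaging and start factor TFAM, the start factor TFB2M and the DNA polymerase POLG. It also supplies the ribosomal RNA methyltransferase TFB1M. In the intestine, absorptive cells of the villus are rich in mitochondria, and *Ppargc1a* is known to rise as cells leave the crypt and differentiate.

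The 280 bases around the start of *Ppargc1a*, *Tfb2m* and *Polrmt* are given below from RefSeq (GRCm38.p6), from 250 bases before the start to 30 bases into the transcript, on the strand of the gene. *Ppargc1a* (chr5:51567696-51567975, minus strand) and *Tfb2m* (chr1:179546247-179546526, minus strand) are shown because their transcripts passed the test in opposite directions, and *Polrmt* (chr10:79746552-79746831, minus strand) because its window held 2 of the motifs searched. Capitals mark the 8-letter core of the NRF1 site (GCATGCGC) and the ETS site bound by the GA-binding protein (CCGGAAG), on either strand.
Ppargc1a: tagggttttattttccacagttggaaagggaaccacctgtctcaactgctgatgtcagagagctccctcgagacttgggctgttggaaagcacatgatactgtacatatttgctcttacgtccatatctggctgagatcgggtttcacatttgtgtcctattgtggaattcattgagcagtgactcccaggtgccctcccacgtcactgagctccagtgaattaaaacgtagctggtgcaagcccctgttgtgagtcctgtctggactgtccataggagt
Tfb2m: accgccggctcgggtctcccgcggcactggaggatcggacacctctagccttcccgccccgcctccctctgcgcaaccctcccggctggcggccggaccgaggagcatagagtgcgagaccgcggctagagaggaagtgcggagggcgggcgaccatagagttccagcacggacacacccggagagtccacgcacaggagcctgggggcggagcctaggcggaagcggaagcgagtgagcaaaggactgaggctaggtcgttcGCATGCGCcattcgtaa
Polrmt: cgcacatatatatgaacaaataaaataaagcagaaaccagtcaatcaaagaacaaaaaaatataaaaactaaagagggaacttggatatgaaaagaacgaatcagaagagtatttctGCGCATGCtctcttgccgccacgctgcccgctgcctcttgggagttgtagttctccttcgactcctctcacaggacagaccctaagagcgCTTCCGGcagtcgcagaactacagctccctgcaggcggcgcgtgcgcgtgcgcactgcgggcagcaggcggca

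Windows were searched for 9 of the 10 genes, all but *Ppargc1b*. The NRF1 core was found in *Tfb2m*, *Polrmt* and *Esrra*, and it was present in 2.58% of all 32851 windows of this length. The ETS site was found in *Polrmt*, *Gabpa*, *Tfam* and *Polg*, against 8.45% of all windows. Neither the E-box CACGTG (6.79% of all windows), which Myc and Max bind, nor the ERR element TCAAGGTCA (0.417%) was found in any of them. The *Ppargc1a* window held none of the 4 motifs and was 48.6% G and C, whereas that of *Tfb2m* was 67.9% and that of *Polrmt* 50.4%, with a median of 52.5% over all windows. These matches describe letters in a short window and do not show binding.

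Totals ran from 19678507 to 26337318 counts per library, and 3 counts, the smallest level taken as measurable, corresponded to 0.114 to 0.152 CPM (counts relative to the library total, on the usual scale). This floor covers counting error only, as the reads carry no molecular identifiers. Levels are given as CPM scaled by edgeR's TMM factors, and groups were compared with edgeR's quasi-likelihood test, adjusted by Benjamini-Hochberg over 13346 genes. WTV replicate 1 stood apart from its group, with a correlation of 0.957 to 0.958 with the other WTV libraries, which correlated at 0.984 with each other. Goblet cell markers made up 0.0129% of its counts against 1.42% to 1.46% in the other WTV libraries and 0.525% to 0.596% in DMV, and Paneth cell markers made up 0.000721% against 0.0848% and 0.144% in WTV and 0.0166% to 0.0263% in DMV. With that library none of the 8 goblet and 6 Paneth markers passed edgeR's test (DESeq2 called 1 Paneth marker lower), and without it 6 goblet markers fell, 2 Paneth markers fell and 1 Paneth marker rose. Of all 13346 genes tested, 36.8% passed, 19.7% higher and 17% lower. Of 12 enterocyte markers, 9 fell and 1 rose, and their share of counts was 4.94% to 5.45% in WTV and 3.25% to 3.50% in DMV. Of 10 proliferation markers 9 rose, and of 10 stem cell markers 6 rose, with no fall by edgeR, DESeq2, limma-voom or an unadjusted p under 0.05. All 7 tested tuft cell markers and 6 of 8 enteroendocrine markers fell, 1 enteroendocrine marker rose, and 2 of 6 tested lymphocyte markers fell (5 of 6 without WTV replicate 1). No myeloid (3 tested) or stromal (2) marker passed edgeR's test, although 1 myeloid marker had an unadjusted p under 0.05 and 1 fell without WTV replicate 1. Goblet, Paneth and lymphocyte markers thus moved with the groups among the other 5 libraries, and their part in the results below was not tested. No marker that the table lists lacked counts in all libraries, and 3 of the 12 stromal markers are not listed.

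Among the 10 regulators, *Tfb2m* rose and *Ppargc1a* and *Ppargc1b* fell in DMV, and the other 7 did not pass the test. The means of *Ppargc1a*, *Ppargc1b*, *Esrra*, *Gabpa*, *Nrf1* and *Polg* were lower in DMV, and those of *Tfb2m*, *Polrmt*, *Tfam* and *Tfb1m* were higher. *Nrf1* and *Polg* turned to higher when libraries were scaled by their totals alone. Of the 4 with higher means only *Tfb2m* passed, and the groups overlapped for *Tfam* and *Tfb1m*. The share that passed, 3 of 10 or 30.0%, lay near that of all genes tested, of which 36.8% passed (19.7% higher and 17% lower, or 2632 and 2273 genes, and 3732 and 1425 with library totals alone). The DMV and WTV values did not overlap for 6 of the 10, against 52.4% of all genes. With DESeq2 *Esrra* passed as well, which made 4 of 10 against 32.9% of the genes that test covered. No regulator changed as much as 2-fold in either direction. Whether a level differs because cells hold more of an RNA or because the mix of cells differs cannot be told apart in these bulk libraries.

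**Figure D1:**
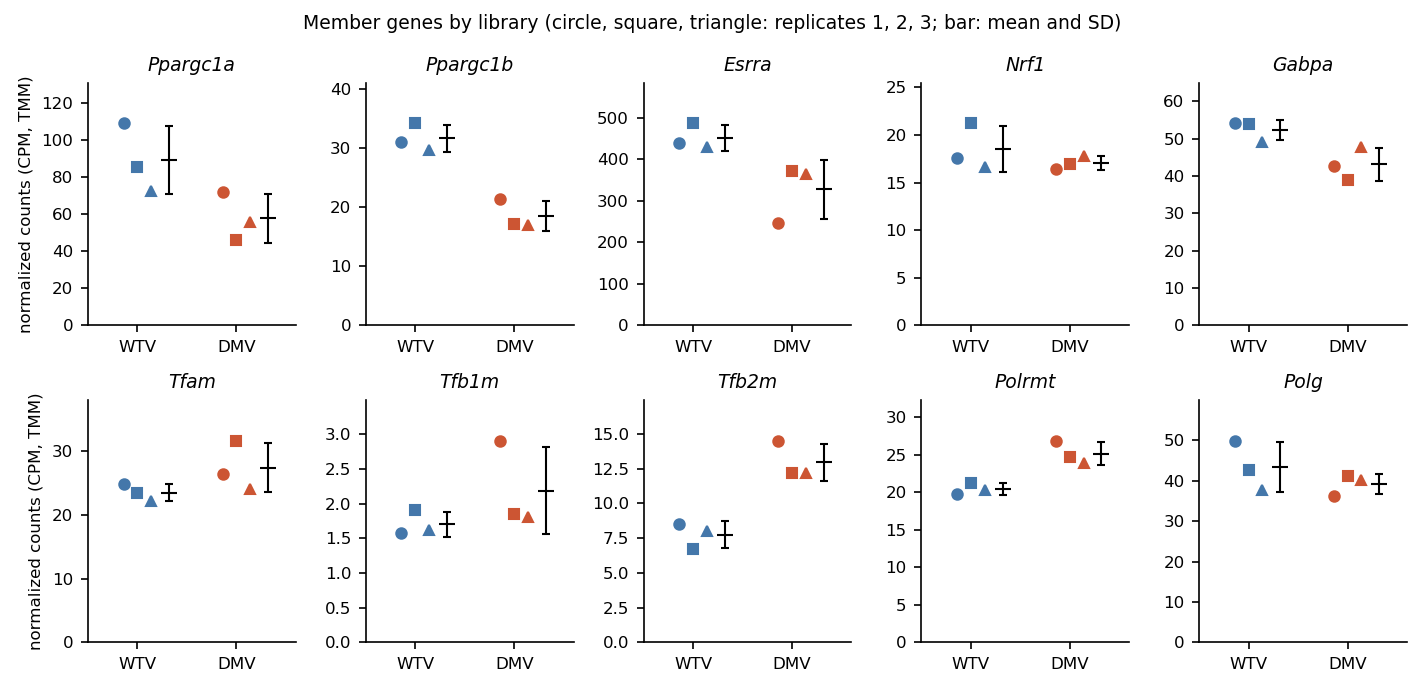
Level of each of the 10 regulators in CPM (TMM), 1 point per library, with the mean and SD of 3 libraries beside each group. All DMV values of *Ppargc1a*, *Ppargc1b*, *Esrra* and *Gabpa* lie under all WTV values, all DMV values of *Tfb2m* and *Polrmt* lie above them, and the groups overlap for the other 4 genes.

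*Ppargc1a* (ENSMUSG00000029167, mm9 chr5:51845488-51958964, minus strand) encodes PGC-1 alpha, the best known coactivator of mitochondrial biogenesis. Its level was 109, 85.5 and 72.5 CPM in WTV replicates 1 to 3 and 71.9, 45.7 and 55.4 CPM in DMV replicates 1 to 3. The groups did not overlap, but the lowest WTV and the highest DMV library lay within 1 CPM of each other, and the male had the highest level in each group. The means were 88.9 ± 18.4 CPM in WTV and 57.6 ± 13.2 CPM in DMV (SD, n = 3 each), a 1.54-fold lower level in DMV. The log2 fold change was -0.63 (SE 0.20, 95% interval -1.08 to -0.17, edgeR adjusted p = 0.0396). The call held in 2 of 6 fits that left 1 library out. The log2 fold change was -0.454 without WTV replicate 1 (edgeR adjusted p = 0.0795) and -0.485 without DMV replicate 2 (0.114), and it stayed close to the full value at -0.656 without WTV replicate 2 (0.0817) and -0.594 without DMV replicate 3 (0.117). With library totals alone the log2 fold change was -0.42 and did not pass (edgeR adjusted p = 0.121).

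*Ppargc1b* (ENSMUSG00000033871, mm9 chr18:61457790-61560085, minus strand) encodes the related coactivator PGC-1 beta. It stood at 31.0, 34.2 and 29.7 CPM in WTV and at 21.4, 17.11 and 17.04 CPM in DMV. The groups were well apart, with the male again the highest of the DMV libraries but not of the WTV libraries. Means of 31.6 ± 2.30 and 18.5 ± 2.50 CPM (SD, n = 3 each) made *Ppargc1b* 1.71-fold lower in DMV, with a log2 fold change of -0.77 (SE 0.14, 95% interval -1.09 to -0.46, edgeR adjusted p = 0.0035). It passed in all 6 fits with 1 library left out, with log2 fold changes from -0.88 to -0.71.

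The third member of the PGC-1 family, *Pprc1*, which encodes PRC, a coactivator induced by growth signals and not counted among the 10, moved the other way. It was measured at 1.25, 3.54 and 3.39 CPM in WTV and at 12.8, 14.8 and 11.4 CPM in DMV. Every DMV library was well above every WTV library, and WTV replicate 1 was the lowest. *Pprc1* was 4.80-fold higher in DMV (log2 fold change 2.26, SE 0.36, edgeR adjusted p = 0.00211). Per kilobase of exon, the 3 family members summed to 24.3, 21.9 and 18.8 RPKM (CPM per kilobase of exon) in WTV and to 17.9, 13.1 and 14.1 RPKM in DMV. The summed level was therefore lower in every DMV library under TMM scaling, at 15.1 ± 2.51 against 21.7 ± 2.77 RPKM (SD, n = 3 each). The exact two-sided permutation p was 0.1, the smallest that 3 against 3 libraries can give. The separation depends on the scaling, and the sum was not tested with library totals alone. The *Pprc1* share of that sum was 0.683%, 2.15% and 2.40% in WTV and 9.53%, 14.9% and 10.7% in DMV (exact permutation p = 0.1). *Ppargc1a* supplied most of the sum in all 6 libraries, from 52.4% to 67.4%.

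**Figure D2:**
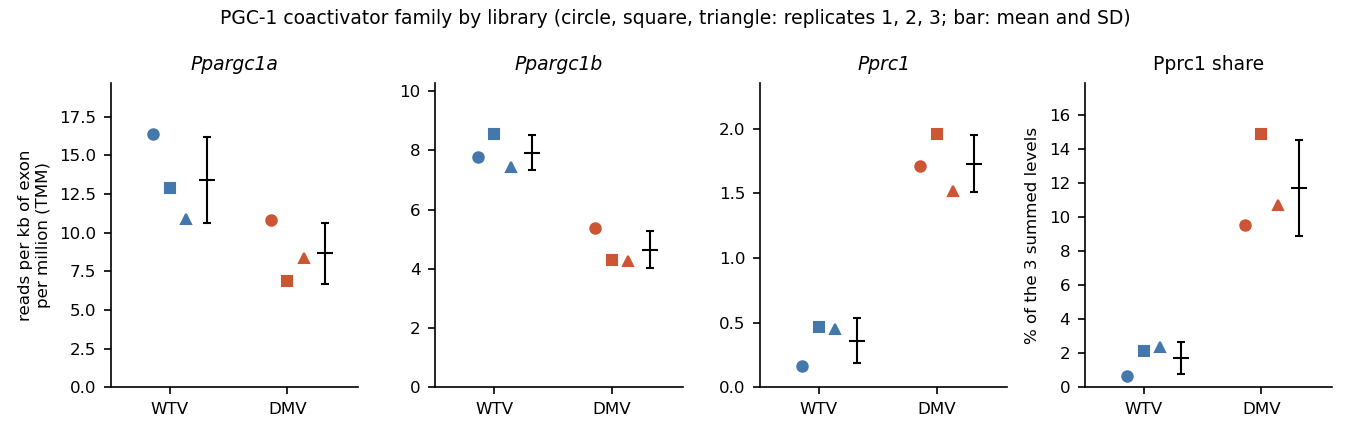
The 3 PGC-1 coactivator genes in RPKM (TMM, exon length), and the *Pprc1* share of their sum in percent, 1 point per library, with the mean and SD of 3 libraries. *Ppargc1a* and *Ppargc1b* are lower and *Pprc1* is higher in all DMV libraries, and the *Pprc1* share goes from 1.74% ± 0.926 to 11.7% ± 2.84.

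*Esrra* (ENSMUSG00000024955, mm9 chr19:6985467-6996303, minus strand), the nuclear receptor through which PGC-1 coactivators act on many respiratory genes, had levels of 440.4, 487 and 429 CPM in WTV and of 246, 371 and 366 CPM in DMV. The groups did not overlap, and the male DMV library was well below the others. The means were 452 ± 30.8 and 328 ± 71.0 CPM (SD, n = 3 each), and the log2 fold change of -0.46 (SE 0.17, 95% interval -0.84 to -0.09) fell short of the threshold with edgeR (adjusted p = 0.0564). It passed with DESeq2 (adjusted p = 0.0259), with RLE factors in edgeR (0.0498) and with sex as a covariate in edgeR (0.0278), but not with limma-voom (0.0537), with library totals alone (log2 fold change -0.27, edgeR adjusted p = 0.209) or in any of 6 edgeR fits with 1 library left out. Without DMV replicate 1 its log2 fold change was -0.28. Its relative *Esrrg* was scarce, between 0.371 and 1.42 CPM over the 6 libraries, with a log2 fold change of -0.66 (SE 0.49, edgeR adjusted p = 0.325). *Esrrb* had no count in 5 of the 6 libraries.

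*Gabpa* (ENSMUSG00000008976, mm9 chr16:84835170-84864024, plus strand) encodes the DNA-binding subunit of the GA-binding protein. It was at 54.1, 53.8 and 49.2 CPM in WTV and at 42.5, 39.0 and 47.7 CPM in DMV. The DMV values all lay below the WTV values, with DMV replicate 3 close to WTV replicate 3. The difference, from 52.3 ± 2.75 to 43.1 ± 4.35 CPM (SD, n = 3 each), did not pass (log2 fold change -0.28, SE 0.12, 95% interval -0.55 to -0.01, edgeR adjusted p = 0.0947). Its partner subunit *Gabpb1*, which carries the activation domain, was at 15.8 ± 0.452 CPM in WTV and 17.9 ± 1.28 CPM in DMV (log2 fold change 0.18, SE 0.13, edgeR adjusted p = 0.314).

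*Nrf1* (ENSMUSG00000058440, mm9 chr6:29997988-30103458, plus strand) encodes nuclear respiratory factor 1, which binds the promoters of many respiratory genes. Its level was 17.5, 21.2 and 16.7 CPM in WTV and 16.4, 16.9 and 17.8 CPM in DMV. These values overlapped, and the log2 fold change of -0.12 (SE 0.14, 95% interval -0.44 to 0.21, edgeR adjusted p = 0.557) was smaller than its error. The sign turned to 0.08 when libraries were scaled by their totals alone, a scaling that moved the median of all genes from 0.02 to 0.21 on the log2 scale.

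*Tfb2m* (ENSMUSG00000026492, mm9 chr1:181458186-181476398, minus strand) encodes the factor that opens mitochondrial promoters for the polymerase, and it was the only one of the 10 that rose. It was measured at 8.54, 6.69 and 8.04 CPM in WTV and at 14.5, 12.2 and 12.2 CPM in DMV. Every DMV library was above every WTV library, and in DMV the male was the highest. The mean went from 7.76 ± 0.955 to 12.9 ± 1.36 CPM (SD, n = 3 each), a 1.67-fold higher level in DMV (log2 fold change 0.74, SE 0.17, 95% interval 0.34 to 1.13, edgeR adjusted p = 0.011). The call held in all 6 fits with 1 library left out, with log2 fold changes of 0.64 to 0.81.

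Its paralog *Tfb1m* (ENSMUSG00000036983, mm9 chr17:3519263-3557713, minus strand), which modifies the small ribosomal RNA of the mitochondrion, was the least abundant of the 10 and rested on 32 to 62 counts per library. *Tfb1m* stood at 1.58, 1.90 and 1.62 CPM in WTV and at 2.91, 1.86 and 1.80 CPM in DMV. Only the male DMV library was above the WTV range. The log2 fold change was 0.36 with a wide interval (SE 0.33, 95% interval -0.38 to 1.11, edgeR adjusted p = 0.414), which held both no change and a rise as large as that of *Tfb2m*. The ratio of *Tfb2m* to *Tfb1m* per kilobase was 2.55, 1.66 and 2.35 in WTV and 2.36, 3.10 and 3.19 in DMV (exact two-sided permutation p = 0.2).

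*Polrmt* (ENSMUSG00000020329, mm9 chr10:79198868-79209326, minus strand), the RNA polymerase of mitochondria, had 19.7, 21.2 and 20.2 CPM in WTV and 26.9, 24.7 and 23.8 CPM in DMV. All DMV libraries were higher, by a margin that was small but larger than the spread within WTV. The means were 20.4 ± 0.769 and 25.1 ± 1.55 CPM (SD, n = 3 each), and the difference did not pass (log2 fold change 0.30, SE 0.12, 95% interval 0.03 to 0.57, edgeR adjusted p = 0.077). With scaling by library totals alone it did pass (log2 fold change 0.50, edgeR adjusted p = 0.0132).

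*Tfam* (ENSMUSG00000003923, mm9 chr10:70688212-70701028, minus strand) encodes the protein that coats mitochondrial DNA and starts its transcription. Levels were 24.8, 23.3 and 22.2 CPM in WTV and 26.3, 31.6 and 24.1 CPM in DMV. The groups overlapped, and DMV replicate 2 was the highest. The log2 fold change was 0.22 (SE 0.14, 95% interval -0.09 to 0.53, edgeR adjusted p = 0.244). *Tfam* too passed under scaling by library totals alone (log2 fold change 0.41, edgeR adjusted p = 0.0384), where the median of all genes was also raised.

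*Polg* (ENSMUSG00000039176, mm9 chr7:86593677-86611248, minus strand), the catalytic subunit of the polymerase that copies mitochondrial DNA, showed 49.9, 42.6 and 37.6 CPM in WTV and 36.2, 41.1 and 40.2 CPM in DMV. The ranges overlapped, and the spread was larger in WTV, where replicate 1 was the highest. The log2 fold change was -0.15 (SE 0.13, 95% interval -0.45 to 0.16, edgeR adjusted p = 0.423), and it turned to 0.05 with library totals alone. Its accessory subunit *Polg2* was at 10.2 ± 1.81 CPM in WTV and 10.4 ± 0.542 CPM in DMV (SD, n = 3 each, log2 fold change 0.04, edgeR adjusted p = 0.887). The helicase *Twnk*, which unwinds mitochondrial DNA ahead of the polymerase, was at 7.69 ± 1.64 and 9.46 ± 0.0423 CPM (log2 fold change 0.30, edgeR adjusted p = 0.259).

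**Figure D3:**
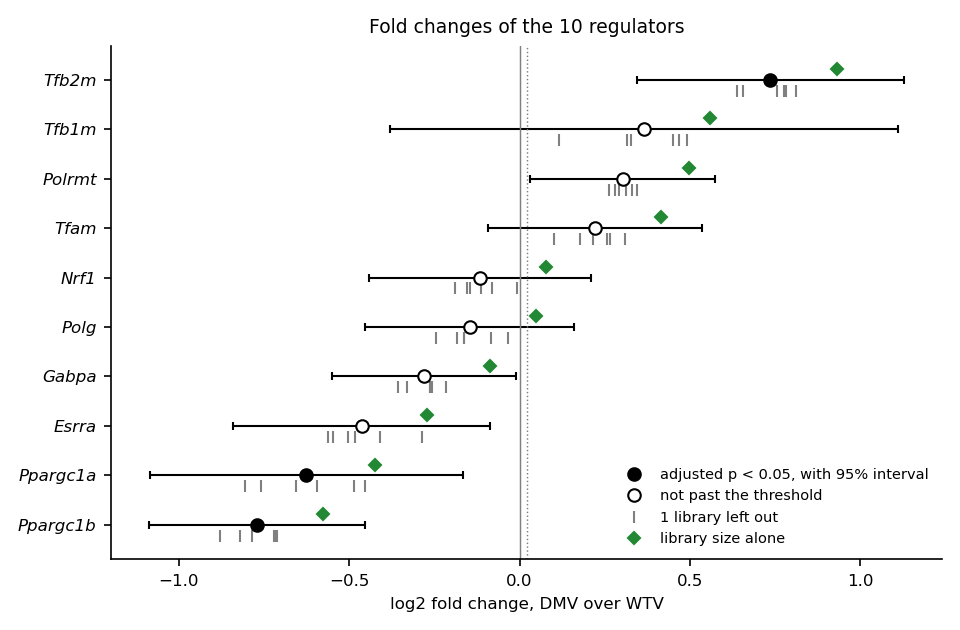
Log2 fold change (DMV over WTV) of the 10 regulators with its 95% interval, filled where the edgeR adjusted p was under 0.05. Short ticks give the 6 fits with 1 library left out and diamonds the fit scaled by library totals alone, and the dotted line marks the median of all genes, 0.02. *Ppargc1b* and *Tfb2m* lie farthest out on opposite sides, at -0.77 and 0.74, and every diamond lies to the right of its circle.

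Exons of 4 of the 10 genes overlapped those of a gene on the opposite strand, whose reads cannot be told apart from theirs because the strand setting of the counting is not given in the sources used here. The shared part was 2.88% of the exon length of *Esrra* (with *Trmt112*), 6.98% of *Gabpa* (*Atp5j*), 10.2% of *Tfb1m* (*Tiam2*) and 12.5% of *Polg* (*Fanci*). *Atp5j*, at 217 CPM in WTV and 235 CPM in DMV, was more abundant than *Gabpa*, and *Tiam2*, at 22.9 and 21.3 CPM, was more abundant than *Tfb1m*. Of these partners only *Trmt112* changed (4.05 to 7.41 CPM, edgeR adjusted p = 0.0136), in the direction opposite to that of *Esrra*. *Ppargc1a*, *Ppargc1b*, *Nrf1*, *Tfam*, *Tfb2m* and *Polrmt* shared no exon with an annotated neighbour.

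Per kilobase of exon, *Esrra* was by far the most abundant of the 10, at 178 ± 12.1 RPKM in WTV and 129 ± 28.0 RPKM in DMV (SD, n = 3 each). In WTV it was followed by *Ppargc1a* (13.4 RPKM), *Gabpa* (9.21), *Ppargc1b* (7.93), *Polg* (6.34), *Tfam* (5.28), *Polrmt* (4.35), *Tfb2m* (2.77), *Nrf1* (1.80) and *Tfb1m* (1.28), and of the neighbours in this order only *Polg* and *Tfam* overlapped. In DMV the order was less distinct. *Ppargc1a* (8.68 RPKM), *Gabpa* (7.57), *Tfam* (6.16), *Polg* (5.72), *Polrmt* (5.36), *Ppargc1b* (4.64) and *Tfb2m* (4.61) followed in that order, and each but *Tfb2m* overlapped the next gene. *Nrf1* (1.66 RPKM) and *Tfb1m* (1.65) came last and below *Tfb2m*. *Ppargc1b* thus stood above *Polg*, *Tfam* and *Polrmt* in WTV, and in DMV its mean was below theirs, with values that overlapped those of *Polg* and *Polrmt*. All annotated exons were counted in the length, which was 10282 bases for *Nrf1*, so levels of genes with rarely used annotated exons are understated.

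Of 25 tested coregulators and partner factors, 4 rose and 7 fell, so that 44.0% passed, against 36.8% of all genes (19.7% higher and 17% lower), with a median log2 fold change of -0.17 against 0.02 for all genes. The rises were in *Myc*, *Pprc1*, the AMP-activated kinase subunit *Prkaa2* and the fatty acid receptor *Ppara*. *Myc*, a growth factor-induced activator, went from 1.62 ± 1.08 to 18.4 ± 2.73 CPM (SD, n = 3 each, log2 fold change 3.53, SE 0.52, edgeR adjusted p = 0.00234). Its binding partner *Max* had the largest fall of the list, with 301, 283 and 316 CPM in WTV and 124, 125 and 158 CPM in DMV (log2 fold change -1.15, SE 0.13, edgeR adjusted p = 0.000421). *Tfeb*, which activates lysosomal genes and is known to induce *Ppargc1a*, fell from 25.1 ± 3.08 to 13.3 ± 1.68 CPM (log2 fold change -0.91, SE 0.15, edgeR adjusted p = 0.0026). The other falls were in the corepressor *Ncor1*, the deacetylase *Sirt1*, and the nuclear receptors *Ppard*, *Pparg* and *Rxra*. All 4 rises, and the falls of *Max*, *Tfeb*, *Ppard* and *Rxra*, held in all 6 fits with 1 library left out, those of *Ncor1*, *Sirt1* and *Pparg* in 4, 3 and 2 of them. Without DMV replicate 2 the falls numbered 4.

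Of 21 tested genes for the replication and upkeep of mitochondrial DNA, 8 rose and none fell with edgeR, so that 38.1% passed, against 36.8% of all genes (19.7% higher and 17% lower), with a median log2 fold change of 0.43. An unadjusted p under 0.05 was found for 2 lower genes (*Endog* and *Slc25a36*), and DESeq2 called 1 gene lower and limma-voom none. The largest rise was in *Top1mt*, a topoisomerase of mitochondria, at 1.29, 0.925 and 2.22 CPM in WTV and 9.53, 10.4 and 8.50 CPM in DMV (log2 fold change 2.67, SE 0.32, edgeR adjusted p = 0.000581). *Dna2* followed at 1.79 (SE 0.34, edgeR adjusted p = 0.00469), and it and *Fen1*, which also rose, serve nuclear DNA replication as well. The other 5 were *Ssbp1*, *Mgme1*, *Slc25a33*, *Atad3a* and *Lonp1*. Only *Top1mt*, *Dna2* and *Lonp1* passed in all 6 fits with 1 library left out, and the rises numbered 3 without DMV replicate 2, 4 without WTV replicate 2 and 5 without WTV replicate 3 or DMV replicate 1. Proliferation markers rose in the same libraries, and their part in this result was not tested.

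Transcription and processing of mitochondrial RNA had 13 of 27 tested genes higher and 1 lower, so that 51.9% passed, against 36.8% of all genes (19.7% higher), with a median log2 fold change of 0.50. *Fastkd2*, which is needed to assemble the mitochondrial ribosome, rose the most, from 3.59 ± 0.815 to 10.4 ± 1.42 CPM (SD, n = 3 each, log2 fold change 1.53, SE 0.23, edgeR adjusted p = 0.00163). *Elac2*, which trims the 3' ends of transfer RNAs, had 5.21, 5.33 and 6.27 CPM in WTV and 14.7, 13.6 and 13.8 CPM in DMV (log2 fold change 1.32, SE 0.16, edgeR adjusted p = 0.000645). The 3 subunits of mitochondrial RNase P, *Trmt10c*, *Hsd17b10* and *Prorp*, all rose, by 1.21, 0.94 and 1.25 on the log2 scale. *Lrpprc*, which stabilizes mitochondrial messenger RNAs, rose by 1.03, and its partner *Slirp* was at 0.50 and did not pass (edgeR adjusted p = 0.0657). *Mterf2*, of the family of termination factors, was the 1 that fell, from 23.3 ± 2.73 to 14.9 ± 0.992 CPM (log2 fold change -0.64, SE 0.14, edgeR adjusted p = 0.00856). Of the 13 rises, 10 held in all 6 fits with 1 library left out. *Tefm*, the elongation factor that works with POLRMT, had a log2 fold change of 0.43 (SE 0.25, edgeR adjusted p = 0.21).

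Of 30 tested genes for protein import into mitochondria, 9 rose and none fell, by edgeR as by DESeq2 and limma-voom, so that 30.0% passed, against 36.8% of all genes (19.7% higher), with a median log2 fold change of 0.36 and no lower gene at an unadjusted p under 0.05. *Timm9*, a chaperone of the space between the membranes, went from 6.55 ± 1.15 to 20.2 ± 3.77 CPM (SD, n = 3 each, log2 fold change 1.62, SE 0.20, edgeR adjusted p = 0.000704). *Tomm5*, a small subunit of the outer membrane pore, went from 13.2 ± 2.31 to 31.4 ± 3.76 CPM (log2 fold change 1.25, SE 0.17, edgeR adjusted p = 0.000905). *Tomm20*, the import receptor whose protein the study stained, was at 39.3, 31.6 and 40.7 CPM in WTV and 47.2, 59.3 and 62.9 CPM in DMV. All DMV libraries were above all WTV libraries, a 1.52-fold difference in transcript level (log2 fold change 0.60, SE 0.15, edgeR adjusted p = 0.0154) that passed in 3 of 6 fits with 1 library left out, with an adjusted p of 0.0541 without WTV replicate 2, 0.0543 without DMV replicate 2 and 0.0602 without DMV replicate 3. The count of rises on the list was 5 to 13 in those fits, and it was 13 without WTV replicate 1 and 5 without WTV replicate 2 or without DMV replicate 2. With library totals alone 19 of the 30 rose, where 3732 of all genes rose.

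Genes known as targets of the PGC-1 coactivators and ERR alpha showed no common direction, with 3 of 23 higher and 3 lower (26.1%, against 36.8% of all genes) and a median log2 fold change of -0.02. The citrate synthase gene *Cs*, whose enzyme is often used as a measure of mitochondrial content, fell from 1957, 1662 and 1681 CPM in WTV to 975, 1016 and 991 CPM in DMV (log2 fold change -0.83, SE 0.12, edgeR adjusted p = 0.00114). The fusion protein gene *Mfn2* fell by 0.55 on the log2 scale. *Cpt1a*, which admits fatty acids to mitochondria, rose from 124 ± 9.78 to 236 ± 37.6 CPM (SD, n = 3 each, log2 fold change 0.93, SE 0.14, edgeR adjusted p = 0.00141). The uncoupling protein gene *Ucp2* rose by 0.57, and the adenine nucleotide carrier *Slc25a4* rose by 0.66 (SE 0.22, edgeR adjusted p = 0.0462), a call that was lost without any 1 of WTV replicates 2 and 3 and DMV replicates 2 and 3, and also with RLE factors in edgeR (0.0539), limma-voom (0.0606) and sex as a covariate in edgeR (0.0605), each of which left 2 genes of the list higher. Without WTV replicate 2 or WTV replicate 3, 1 gene of the list rose. None of the genes for respiratory chain and ATP synthase components on the list (*Sdhb*, *Ndufb5*, *Cox4i1*, *Cox5b*, *Cox7a2*, *Uqcrc2*, *Cycs* and *Atp5b*) passed, with log2 fold changes from -0.26 for *Atp5b*, whose DMV values all lay below the WTV values, to 0.16 for *Ndufb5*. Enterocyte markers fell in the same libraries, and their part in the falls of *Ppargc1a*, *Ppargc1b* and *Cs* was not tested.

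**Figure D4:**
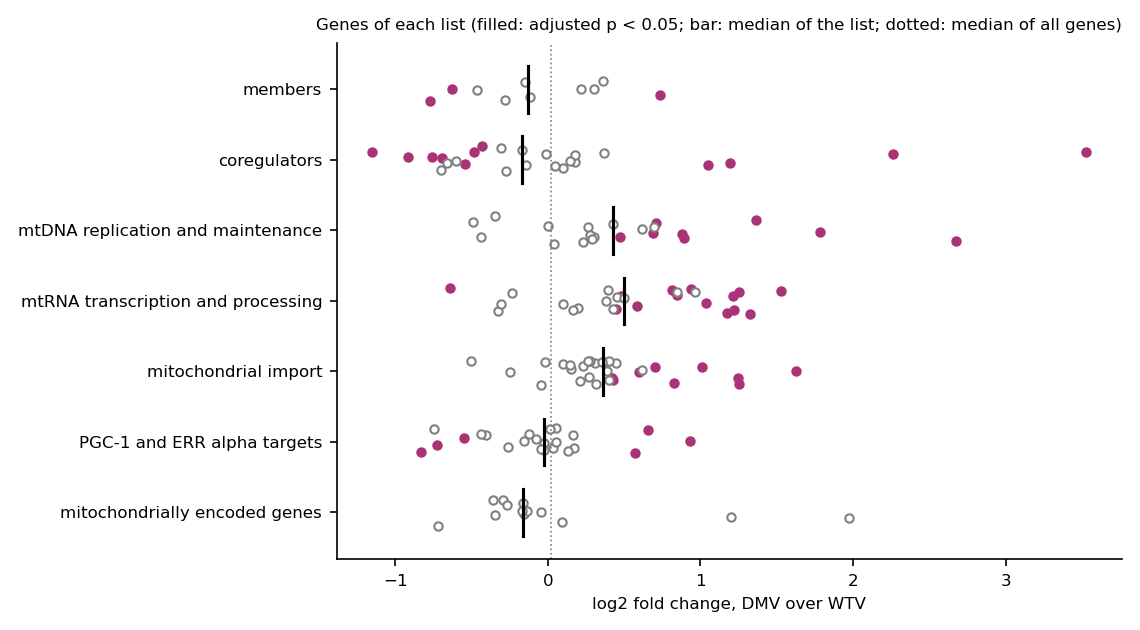
Log2 fold change (DMV over WTV) of every tested gene of 7 lists, filled where the edgeR adjusted p was under 0.05, with the median of each list as a bar and that of all genes as a dotted line. The medians of the lists for mitochondrial DNA, RNA and protein import lie at 0.43, 0.50 and 0.36, and those of the 10 regulators and of the coregulators lie at -0.13 and -0.17.

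The 13 protein-coding transcripts of the mitochondrial genome are made by the machinery that *Polrmt*, *Tfam* and *Tfb2m* encode. None of the 13 passed the test with edgeR, DESeq2 or limma-voom, against 36.8% of all genes with edgeR and 32.9% with DESeq2. *mt-Nd4l* (higher in DMV) was the 1 with an unadjusted edgeR p under 0.05. It was at 5.29, 8.432 and 3.285 CPM in WTV and at 8.732, 46.7 and 11.11 CPM in DMV, with DMV replicate 2 far above the rest. Its log2 fold change of 1.97 went down to as low as 0.81 with 1 library left out. The 13 together made up 6.34%, 3.92% and 4.50% of counts in WTV and 5.18%, 4.26% and 4.61% in DMV. The male library was the highest in both groups, and the means of 4.92% ± 1.26 and 4.68% ± 0.465 (SD, n = 3 each) differed by less than the spread within WTV (exact two-sided permutation p = 0.9). The difference, -0.23 percentage points, was 0.47 without WTV replicate 1. *mt-Co1*, the most abundant, was at 32950, 20700 and 22940 CPM in WTV and at 22620, 17860 and 19870 CPM in DMV (log2 fold change -0.34, SE 0.19, edgeR adjusted p = 0.199). *mt-Nd3*, *mt-Nd4l* and *mt-Atp8* were below 50 CPM in every library. *mt-Co2*, *mt-Co3* and *mt-Atp6* lay between 21.7 and 173 CPM, so the summed share rests mostly on the other transcripts. The libraries were enriched for polyadenylated RNA, and how the counting treated reads that match several places is not given in the sources used here, so that these levels do not give the amount of mitochondrial RNA or DNA in the cells.

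**Figure D5:**
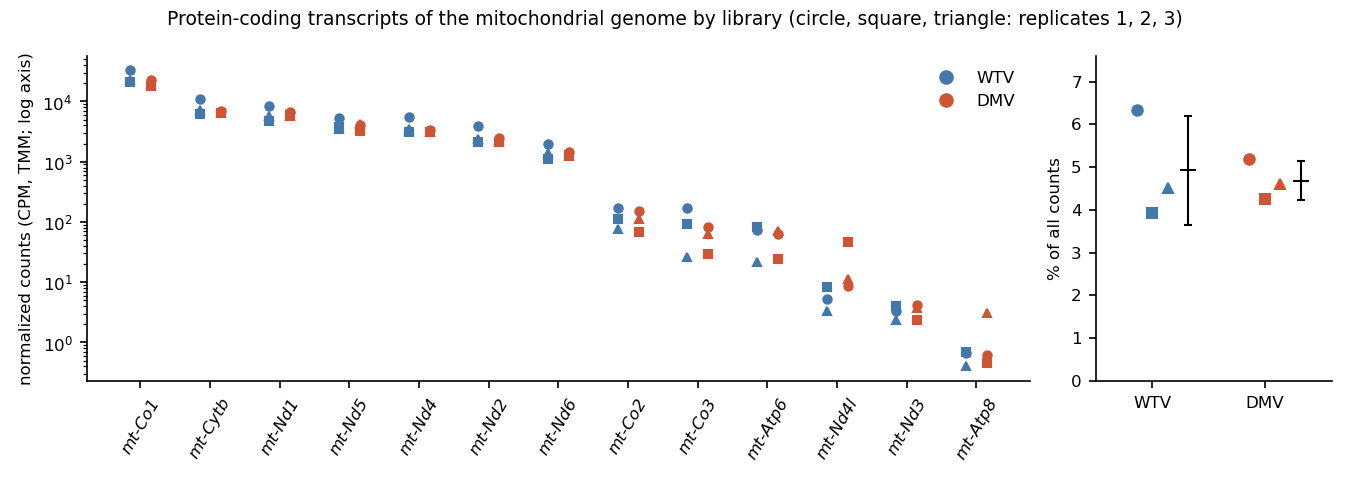
Left, level of each of the 13 protein-coding transcripts of the mitochondrial genome in CPM (TMM, log axis), 1 point per library. Right, their summed share of all counts in percent, with the mean and SD of 3 libraries per group, 4.92% ± 1.26 in WTV and 4.68% ± 0.465 in DMV, with overlapping values.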

How the data were processed

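The data are 6 bulk RNA-seq libraries from villi of the duodenum, and the sample labels gave the groups. Reads had been aligned by the authors with HISAT2 (mm9), and the deposited raw counts came from featureCounts, unscaled and with 1 column per library. Totals were 19678507 to 26337318 counts, and numbered transcripts outside the annotation held 0.243% of them.

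From these counts, genes were filtered by filterByExpr with the group, scaled by TMM and tested with edgeR 4.0.16 (R 4.3.3; glmQLFit, robust, and glmQLFTest), with all 6 libraries in 1 fit and Benjamini-Hochberg adjustment over 13346 genes at 0.05. Each SE was derived from the F statistic and the log2 fold change. Single values were compared by exact permutation. Symbols, exon lengths and coordinates came from the GENCODE annotation of mm9, and promoters from RefSeq (GRCm38.p6). These builds were not mixed.

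The regulators and gene lists were chosen with earlier results of these data known. Named genes were the 10 regulators, the 2 largest rises and 2 largest falls past the threshold in each list, and *Tomm20*, *Pprc1*, *Esrrg*, *Gabpb1*, *Polg2*, *Twnk*, *Tefm* and *Myc*, of which 1 is not reported here. Other list members are named to say which passed or to give a complex in full, and were chosen after their values were seen. After the counts were seen, the older symbols of 7 list genes, of which 2 named another gene, were corrected through RefSeq synonyms. With the first names the calls were 4 higher and 6 lower of 22 coregulators, 7 and 0 of 20 genes for mitochondrial DNA, 13 and 1 of 26 for its RNA and 9 and 0 of 29 for import.

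The tests were tried on simulated counts. With gene-wise spreads as estimated from these libraries, the share of false calls by edgeR was above the nominal level, and the simulation was then changed to spreads drawn around the fitted trend, under which it was not. The power asked of the test was also lowered after a first trial. DESeq2 made more false calls than its nominal share in that simulation. Alternatives were DESeq2 1.42.0, RLE factors, library totals alone, limma-voom (limma 3.58.1), 2 other filters, a replicate block, sex as a covariate, omission of mitochondrially encoded genes, a fold threshold and each library left out in turn. Single-cell data are not analysed here.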

Additional observations from a re-analysis of the deposited data

Results flagged for a closer look

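Among the 10 regulators and the 21 other genes that the naming rule covers, *Myc* was the 1 gene with an interaction term between group and sex past the threshold. Its log2 fold change (DMV over WTV) was larger by 2.43 in the pair of male libraries than in the female libraries (SE 0.52, adjusted p = 0.044 over all genes, edgeR interaction term). The male arm rests on 1 library per group, and the male WTV library is the one that stood apart from its group, so that sex and library cannot be told apart and no difference between the sexes is shown. *Myc* was at 0.417 CPM (10 counts) in that library and at 1.90 and 2.53 CPM in the female WTV libraries, and at 18.6, 15.5 and 21.0 CPM in DMV. The interaction for *Pprc1* was 1.44 (adjusted p = 0.11), and none of the 10 regulators passed.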

How the results depend on the processing

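*Ppargc1b* as lower and *Tfb2m* as higher kept their calls under all 15 alternatives that refit the test, and *Ppargc1a* lost its call with library totals alone (log2 fold change -0.42, edgeR adjusted p = 0.121) and in 4 of the 6 fits with 1 library left out. Over all named genes, 440 of 464 refitted fold changes kept their direction and their side of the threshold. Library totals alone gave 3 regulators higher (*Tfb2m*, *Polrmt* and *Tfam*) and 1 lower, against 3732 of all genes higher and 1425 lower, with 3 coregulators lower and 19 import genes higher, and turned *Nrf1* to 0.077 and *Polg* to 0.049. An added log2 fold threshold of 1 left 0 regulators higher and 0 lower, with 1454 genes higher and 832 lower. DESeq2, RLE factors and the filter at 1 CPM in 3 libraries each put 1 gene for mitochondrial DNA lower. With 1 library left out, the counts over all genes ran from 1812 to 2783 higher and from 1630 to 2361 lower, lowest without DMV replicate 2 and highest without WTV replicate 1. In the same fits they ran from 1 to 2 for regulators lower, from 4 to 8 for coregulators lower, from 3 to 7 higher and 0 to 1 lower for mitochondrial DNA, from 5 to 13 for import genes higher and from 1 to 3 for targets higher, and *Polg2* ran from -0.09 to 0.17. The cause of these changes was not tested. *Tfb1m*, at 32 to 62 counts per library, is the regulator for which depth limits most.

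The replicate numbers did not pair the libraries, since deviations from the group means correlated at 0.02, -0.11 and 0.01 for the same numbers. A replicate block left 1 regulator higher and 2 lower (*Ppargc1a* at an edgeR adjusted p of 0.0218). It gave 4 genes for mitochondrial DNA and 1 mitochondrially encoded gene as higher, and lost *Slc25a4* (edgeR adjusted p = 0.108), with 2084 of all genes higher and 1750 lower.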
